A study of Danio rerio with 12 samples.

Results

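sik1 and crema are 2 genes of the feedback on cAMP and CREB signalling, and they were followed here in whole brains of adult AB wild-type zebrafish. They were taken by their gene symbols on the array and are 2 of the 8793 genes that the array names by a single symbol, with 1 probe set each among 15502. The pair was selected on its measured log2 values in the 4 groups, so the levels and differences of sik1 and crema are given as a description, without a test. On 12 one-colour arrays, 3 per group, the study set winners and losers of a fight with a real opponent beside mirror fighters, which fought their own image, and fish kept in isolation without an opponent. All fish carried no engineered change, were kept alone for 5 days beforehand, and gave their brains after 30 min of the manipulation. The study's design text names a Qiagen column kit for lipid tissue for the RNA extraction and the labels name Trizol, and neither tells if same-numbered winners and losers met in 1 fight. Nothing in the labels tells if 1 brain or a pool of brains went onto each array. The spread between arrays of a group may therefore understate that between fish, and n = 3 counts arrays. This spread may also be partly technical.

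CREB is a transcription factor that cAMP and calcium signals switch on in active neurons, through protein kinase A and calcium-dependent kinases that phosphorylate it. Its targets include genes that restrain the same pathway. In mammals, SIK1 is a salt-inducible kinase that phosphorylates the CRTC coactivators of CREB and keeps them out of the nucleus, and its own gene is induced by cAMP. The mammalian CREM gene makes activators as well as repressors of the same DNA element, among them the short inducible repressor ICER. The single crema probe set cannot tell such forms apart.

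The arrays had median intensities of 94.1 to 104, and the log2 values of arrays of 1 group correlated at 0.957 to 0.977. The bacterial controls added at hybridization, 14 probe sets, averaged a log2 intensity of 10.48 ± 0.25 in winners and 10.35 ± 0.32 in losers, against 9.40 ± 0.10 in mirror fighters and 9.37 ± 0.12 in isolated fish (SD, n = 3 each). In these controls the arrays of winners and losers were 2.05-fold brighter than those of the other groups, with no overlap. The 27 poly-A controls, added to the RNA before labelling, averaged 6.74 ± 0.09 in winners and 6.76 ± 0.12 in losers, against 6.21 ± 0.22 in mirror fighters and 6.38 ± 0.02 in isolated fish, and were 1.37-fold brighter on the arrays of winners and losers. Differences of winners or losers from the other groups below therefore lie between arrays that also differ in spiked controls, and the part of this in the results was not tested. Between mirror fighters and isolated fish, and between winners and losers, the controls of either kind differed by less.

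sik1 stood at a low level in isolated fish, an intermediate one in mirror fighters and a high one after real fights, and was highest in losers. Winner arrays read log2 intensities of 9.07, 9.05 and 8.71, and loser arrays 9.38, 9.11 and 9.19. Mirror fighter arrays read 8.03, 7.87 and 8.03, and isolated arrays 7.17, 7.02 and 7.55. Every winner and loser array lay above every mirror fighter array, and every mirror fighter array lay above every isolated one. The group means were 8.94 ± 0.20 in winners, 9.23 ± 0.14 in losers, 7.98 ± 0.09 in mirror fighters and 7.25 ± 0.27 in isolated fish (SD, n = 3 each). As intensities these correspond to geometric means of 492, 598, 252 and 152.

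sik1 was 3.24-fold higher in winners than in isolated fish (log2 difference 1.70 ± 0.17, SE), the 40th highest of the 15502 differences. In losers it was 3.94-fold higher than in isolated fish (1.98 ± 0.17), the 26th highest, and in mirror fighters 1.66-fold higher (0.73 ± 0.17), the 273rd. These comparisons share the isolated arrays. Against mirror fighters, sik1 was higher by 0.96 ± 0.17 in winners and by 1.25 ± 0.17 in losers. The step between mirror fighters and isolated fish lay between arrays with hybridization controls of 9.40 and 9.37 and poly-A controls of 6.21 and 6.38. Groups without overlap were common in these data: winners stood wholly above isolated fish at 10.6% of probe sets, losers at 10.8% and mirror fighters at 4.94%, and winners stood wholly above mirror fighters at 11.0% and losers at 10.3%.

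sik1 was slightly lower in winners than in losers, by a log2 difference of -0.28 ± 0.17 (SE), and this is the one step in its order of levels that is small against the spread. The highest winner array (9.07) lay just under the lowest loser array (9.11), an order that 2.64% of probe sets shared. Arrays with the same number differed, winner minus loser, by -0.31, -0.06 and -0.48. Without winner array 3 the difference was -0.16. The full order of sik1, with losers above winners above mirror fighters above isolated fish and no overlap between neighbours, was found at 7 probe sets, 0.0452% of all. The symbols among them were btg2, egr2b, egr4, fosab, sik1 and wu:fj62d01. This order was taken from sik1 itself. Without the small step between losers and winners, it was found at 21 probe sets, 0.135% of all. The symbols added were atp1b2a, cyp2k6, fech, npas4a, nr4a1 and si:dkey-19b23.8.

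crema was read at a low level and had a different order, with winners highest and the other groups close together. Winner arrays read log2 intensities of 5.51, 5.51 and 5.39, and loser arrays 5.15, 5.25 and 4.63. Mirror fighter arrays read 4.87, 5.09 and 4.64, and isolated arrays 5.08, 4.54 and 4.91. All 3 winner arrays lay above the 9 others, which overlapped freely among the losers, mirror fighters and isolated fish. The means were 5.47 ± 0.07 in winners, 5.01 ± 0.33 in losers, 4.87 ± 0.22 in mirror fighters and 4.85 ± 0.28 in isolated fish (SD, n = 3 each). Geometric mean intensities were 44.4, 32.3, 29.2 and 28.7, and the mean level of the probe set lay at the 25.5th percentile of all probe sets, near the dimmest 25%.

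**Figure D1:**
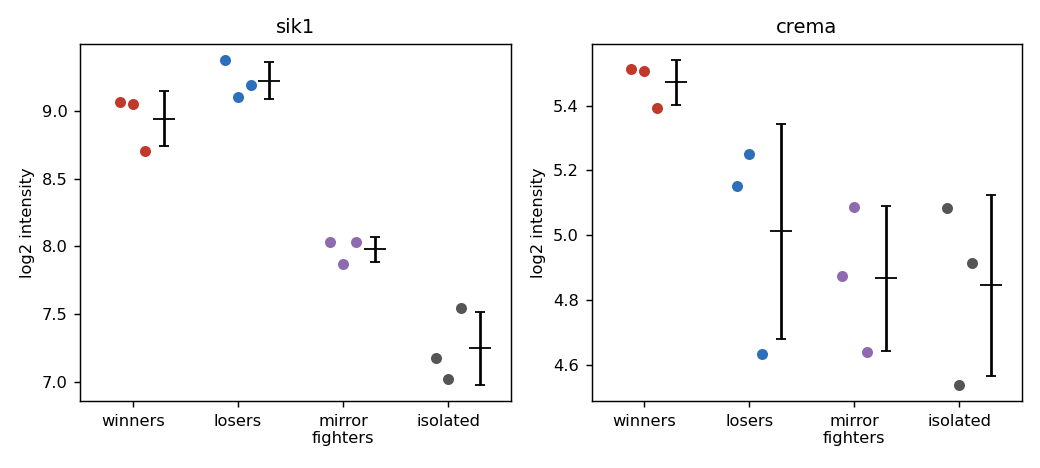
Log2 intensity of sik1 (left) and crema (right) on each array, with points for the 3 arrays of winners, losers, mirror fighters and isolated fish, and a bar for the group mean ± SD beside them; the 2 vertical axes have different ranges and do not start at 0. For sik1 the groups form 3 separate levels, with winners and losers at 8.71 to 9.38, mirror fighters at 7.87 to 8.03 and isolated fish at 7.02 to 7.55, whereas for crema the winner arrays (5.39 to 5.51) stand above the rest (4.54 to 5.25).

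crema was 1.54-fold higher in winners than in isolated fish (log2 difference 0.63 ± 0.20, SE) and 1.52-fold higher than in mirror fighters (0.60 ± 0.20). Winners also exceeded losers, by 0.46 ± 0.20, an arrangement without overlap that 3.93% of probe sets shared. Same-numbered arrays differed, winner minus loser, by 0.36, 0.26 and 0.76, and the difference was 0.27 without loser array 3. Losers differed from isolated fish by 0.17 ± 0.20 and from mirror fighters by 0.15 ± 0.20, and mirror fighters from isolated fish by 0.02 ± 0.20, all within the spread of the groups. Leaving out 1 array took the difference of losers from isolated fish to between 0.01 and 0.36, and that of mirror fighters from isolated fish to between -0.13 and 0.14, so only the difference of mirror fighters changed sign. Every winner array above the 9 others was a pattern of 101 probe sets, 0.652% of all. Since 32 added to each value before log2 brought the difference of winners from isolated fish to 0.33, the size of the crema differences depends on how low signal is treated.

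On these arrays the winner minus loser differences of the 2 genes had opposite signs, -0.28 ± 0.17 (SE) for sik1 and 0.46 ± 0.20 for crema. Winners wholly below losers were found at 2.64% of probe sets and wholly above at 3.93%, so neither order was rare. Whether the 2 genes differ in direction was not tested. For neither gene did winner and loser arrays overlap. Any pairing of these arrays then gives the same signs by construction, which adds no evidence. The spread within groups is given as a description, since the pair was selected on these values. The SD within groups was 0.19 for sik1, against a median of 0.22 for 2073 probe sets within 0.5 of its mean log2 level. It was 0.25 for crema, against 0.34 for 2320 such probe sets. For crema this pooled value joins an SD of 0.07 in winners and 0.33 in losers.

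While sik1 was not tested, the other salt-inducible kinase genes measured, sik2b and sik3, passed the test in no comparison. sik2b, which like SIK1 acts on CRTC proteins in mammals, differed from isolated fish by 0.54 ± 0.27 in winners (adjusted p = 0.292, limma) and by 0.62 ± 0.27 in losers (adjusted p = 0.215), and its winner and isolated arrays overlapped. sik3 was read by 2 probe sets that did not show the same picture. Its brighter one read 8.67, 8.82 and 8.73 in winners and 8.59, 8.90 and 8.55 in losers, against 7.36, 7.00 and 8.50 in mirror fighters and 6.81, 7.43 and 8.23 in isolated fish. Mirror fighter array 3 and isolated array 3 thus stood near the winners and losers, and the other arrays of these groups lay below. The difference of winners from isolated fish was 1.25 ± 0.40 (adjusted p = 0.156), and at the dimmer sik3 probe set it was -0.04 ± 0.19. Of the LKB1 complex, which activates these kinases, stk11 itself differed between winners and isolated fish by 0.19, and strada, its pseudokinase partner, differed between losers and isolated fish by -0.30 ± 0.23 (adjusted p = 0.483).

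cremb, the other zebrafish crem gene, showed no separate winner level. Its arrays read 6.25, 5.98 and 6.19 in winners and 6.35, 6.02 and 6.61 in losers, against 5.94, 6.16 and 6.32 in mirror fighters and 5.99, 5.75 and 6.14 in isolated fish, so all 4 groups overlapped. Its largest difference, losers from isolated fish, was 0.36 ± 0.18 (adjusted p = 0.276). The CREB gene creb1a differed from isolated fish by -0.22 in winners and -0.17 in losers. The genes of the CREB-binding acetyltransferases crebbpa and crebbpb were higher by 0.61 and 0.66 in winners than in isolated fish, with neither passing the test. Again crebbpa had mirror fighter array 3 (9.28) and isolated array 3 (9.40) among the winner values. So did crebbpb, at 8.83 and 8.97, with winners at 8.62 to 9.07. A dimmer probe set of crebbpb differed between winners and isolated fish by 0.22 ± 0.32.

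**Figure D2:**
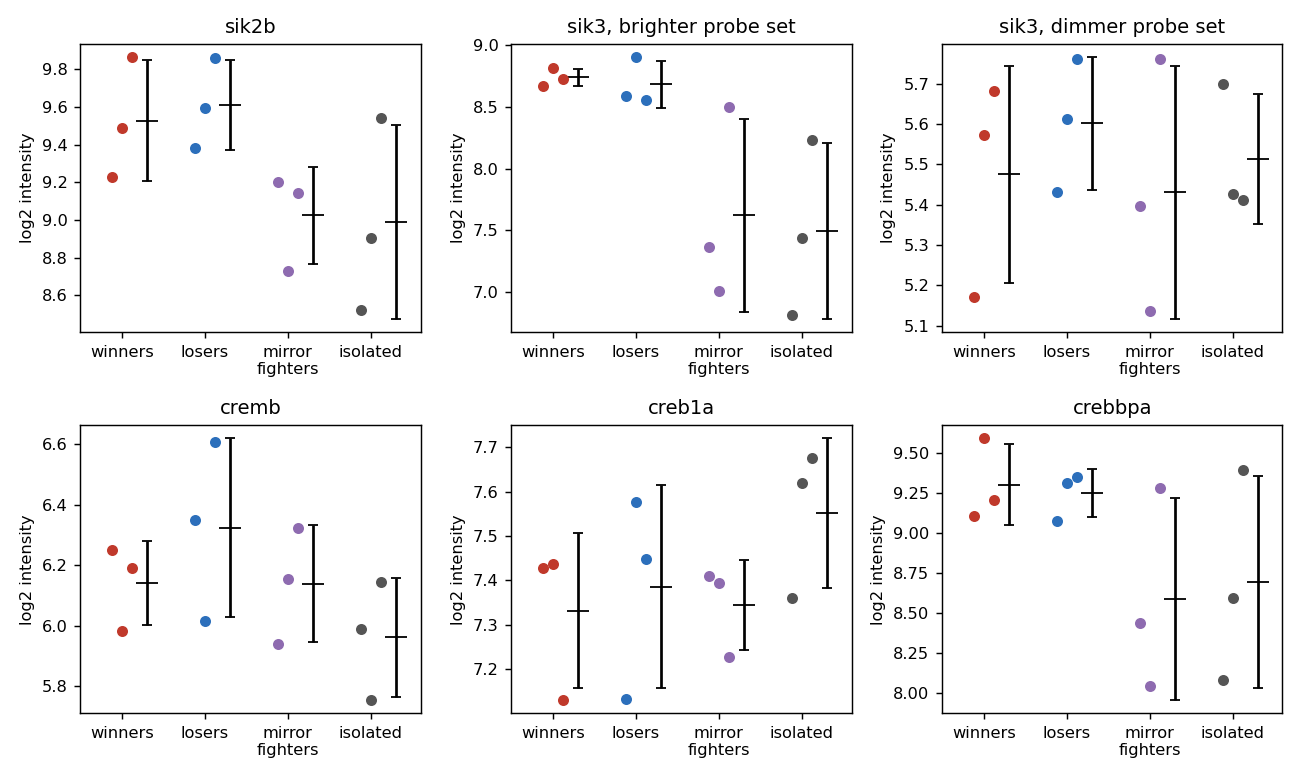
Log2 intensity by array of relatives and partners of sik1 and crema: sik2b, both probe sets of sik3, cremb, creb1a and crebbpa; points are the 3 arrays per group and bars the mean ± SD, and each panel has its own vertical range. The brighter sik3 probe set and crebbpa are tight in winners and losers and spread widely in mirror fighters and isolated fish, and no panel repeats the 3 levels of sik1.

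None of the genes measured from the signalling steps around CREB was called, a count near the background. Besides sik1 and crema, 40 genes of 7 lists were measured. The lists were SIK and LKB1, CREB and coactivators, cAMP synthesis, cAMP breakdown, protein kinase A, calcium to CREB kinases, and HDAC and MEF2 genes. Each was read only in part, for example 2 of 18 listed genes for cAMP synthesis, 3 of 21 for cAMP breakdown and 12 of 37 for calcium to CREB kinases. No CRTC gene and no enzyme that makes cAMP was among the genes measured, so these steps were not covered. limma called none of the 40 in any of the 6 comparisons, where it called at most 0.568% of all probe sets. Between winners and isolated fish, 7 of the 40 were higher and 4 lower at an unadjusted p under 0.05. The shares of all probe sets were 9.42% and 10.2%. Between losers and isolated fish these counts were 7 and 2, against 9.17% and 12.1%. Winners against mirror fighters gave 9 and 3, against 8.24% and 8.61%. Losers against mirror fighters gave 6 and 3, against 7.58% and 10.1%. In these comparisons the share higher exceeded that of all probe sets and the share lower did not, which was not tested. Mirror fighters against isolated fish gave 0 and 1, against 1.61% and 2.23%. Winners against losers gave 1 and 0, against 2.18% and 1.96%, shares near the background. The median log2 difference of the 40 genes from isolated fish was 0.13 in winners and 0.09 in losers, where the median of all probe sets was 0.01 and -0.01.

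Within these lists the smallest p-values belonged to genes of several roles. adcyap1a, which encodes the cAMP-raising neuropeptide PACAP, differed between winners and mirror fighters by -0.63 ± 0.19 (adjusted p = 0.178), and adcyap1b between losers and isolated fish by 0.10 ± 0.12 (adjusted p = 0.653). The phosphodiesterase gene pde10a, whose enzyme breaks down cyclic nucleotides, differed between winners and mirror fighters by 1.09 ± 0.33 (adjusted p = 0.179). The dim pde8a differed there by 1.86 ± 0.39 (adjusted p = 0.123), and pde4ba between winners and isolated fish by 0.15 ± 0.14 (adjusted p = 0.565). Another probe set of pde4ba, which was not dim, differed between winners and isolated fish by -0.52 ± 0.29 (adjusted p = 0.329, limma). Among protein kinase A genes, the regulatory subunit prkar2aa differed between winners and isolated fish by 0.42 ± 0.14 (adjusted p = 0.166) and the inhibitor pkib between winners and mirror fighters by -0.40 ± 0.15 (adjusted p = 0.238). The dim regulatory subunit prkar1ab differed between mirror fighters and isolated fish by -1.86 ± 0.56 (adjusted p = 0.998).

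Values in the calcium to CREB kinase list were of similar size. This list is not confined to calcium-dependent kinases, as it also holds the phosphatase calcineurin and ribosomal S6 kinases. The calcineurin subunit ppp3cca differed between winners and mirror fighters by 0.59 ± 0.20 (adjusted p = 0.206). The ribosomal S6 kinase genes rps6kal and rps6ka1 differed between winners and isolated fish by 0.52 ± 0.16 (adjusted p = 0.145) and -0.37 ± 0.13 (adjusted p = 0.176). Of the HDAC and MEF2 genes, hdac4 differed between winners and isolated fish by 0.91 ± 0.31 (adjusted p = 0.169, limma) and mef2aa by 0.66 ± 0.25 (adjusted p = 0.199). The dim mef2ca differed between winners and losers by 0.93 ± 0.40 (adjusted p = 0.9997).

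Apart from sik1 and crema, which were not tested, the pathway genes that were called all came from the list of CREB target genes. Whether CREB drove them was not tested. Of 25 measured, 10 rose in winners against isolated fish and none fell, where 0.187% of all probe sets were called higher. In losers 11 rose against isolated fish (background 0.258%) and 8 rose against mirror fighters (background 0.142%), with none falling in either. None was called between mirror fighters and isolated fish (background 0.0%), where 7 were higher and 0 lower at an unadjusted p under 0.05, against 1.61% and 2.23% of all probe sets. None was called between winners and mirror fighters (background 0.00645%; 14 higher and 1 lower unadjusted, against 8.24% and 8.61%) or between winners and losers (background 0.0%; 0 higher and 5 lower unadjusted, against 2.18% and 1.96%). The list was drawn up with earlier results of these arrays known. Its counts, their direction, their excess over the background and their contrast with the other lists are therefore no independent evidence. Several of these counts changed when a single array was left out. The 4 groups share 1 estimate of the spread, so an array outside a comparison can also change its count. For winners against isolated fish, 5 were called without isolated array 2 and 6 without isolated array 1 or winner array 2. For losers against isolated fish, 7 were called without isolated array 2. Without loser array 1, 10 were called there, 9 higher and 1 lower. For losers against mirror fighters, 0 were called without loser array 2 or mirror fighter array 1 or 2, 3 without isolated array 1 or 2, loser array 1 or 3 or winner array 2, and 4 without isolated array 3 or mirror fighter array 3.

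The targets that rose in winners were the neuronal activity factor npas4a (13.8-fold, adjusted p = 0.000664 by limma), the nuclear receptor nr4a1 (7.54-fold), the AP-1 subunits fosab (6.02-fold) and junba (2.52-fold), the zinc finger factors egr4 (4.01-fold), egr2b (2.41-fold) and egr2a (2.40-fold, adjusted p = 0.0499), the growth arrest genes btg2 (2.82-fold) and gadd45ba (2.50-fold), and the neurotrophin gene bdnf (1.94-fold). In losers egr1 was called in addition, at 2.90-fold over isolated fish (adjusted p = 0.0397), and differed in winners by 1.22 ± 0.28 (adjusted p = 0.111). The 8 that rose in losers against mirror fighters were npas4a (5.68-fold), nr4a1, egr4, junba, btg2, gadd45ba, bdnf and egr2b (1.86-fold). Of the 19 alternative settings, 13 ended the call of egr2a in winners, 12 that of egr1 in losers, and in losers against mirror fighters 13 ended those of egr4 and nr4a1, 12 that of egr2b, 11 that of gadd45ba and 10 that of bdnf. For npas4a, 0 of 19 ended the call in winners or losers against isolated fish. Another probe set of btg2, which was dim, differed between winners and isolated fish by -0.14 ± 0.33. Others lay near their isolated level, such as the somatostatin gene sst1.1 (0.06 in winners and -0.02 in losers) and the opioid peptide gene penkb (-0.10 and -0.17).

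**Figure D3:**
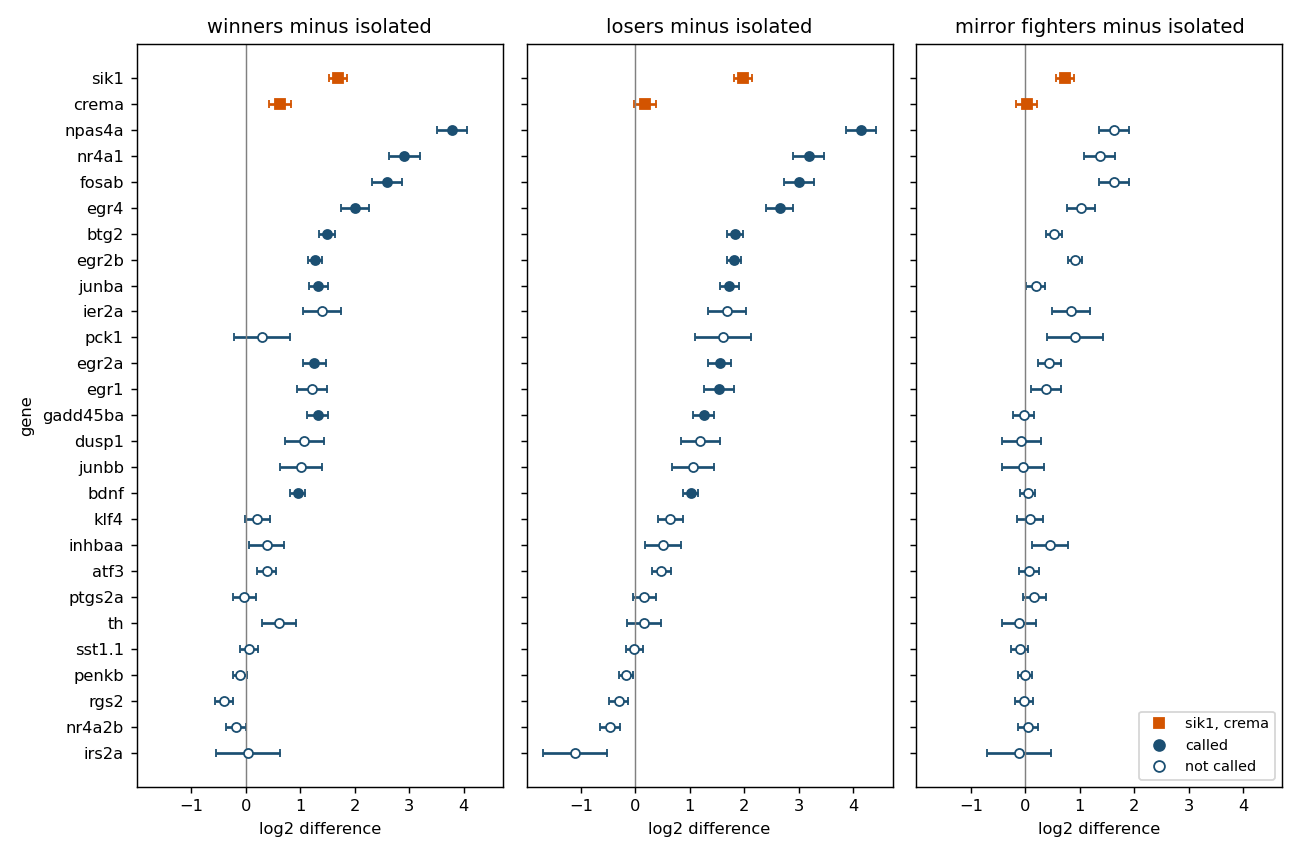
Log2 difference from isolated fish ± SE (horizontal axis) of sik1 and crema (squares) and of 25 CREB target genes (circles, filled where the adjusted p was under 0.05), in winners, losers and mirror fighters. sik1 lies among the called targets in winners (1.70) and losers (1.98), and at 0.73 in mirror fighters, where no target was called. crema is off 0 in winners (0.63) and near it in losers (0.17) and mirror fighters (0.02).

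In mirror fighters sik1 (0.73 ± 0.17) lay between the targets with larger and those with smaller differences. fosab differed from isolated fish by 1.62, npas4a by 1.64, nr4a1 by 1.36, egr4 by 1.02 and egr2b by 0.91, though none was called. Others that rose in winners and losers were near their isolated level in mirror fighters, among them bdnf (0.05), gadd45ba (-0.03) and junba (0.20). Between winners and losers, 19 of the 25 targets were below 0, with a median of -0.19, where the median of all probe sets was 0.02. sik1 had the same sign there and crema the opposite one.

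The genes whose pattern over the 12 arrays was most like that of sik1, ranked by Pearson correlation among brighter probe sets and given without a test, were npas4a (0.991), nr4a1 (0.980), wu:fj62d01 (0.967), btg2 (0.962), fosab (0.961, at a probe set other than the one described above), egr4 (0.960), the ubiquitin ligase gene siah2l (0.950), egr2b (0.950), junba (0.949) and egr1 (0.948). The arrays of a group share its condition and fall into groups, so the points are not 12 independent ones. siah2l, which no list here holds, differed from isolated fish by 0.65 in winners, 0.75 in losers and 0.14 in mirror fighters. The level of wu:fj62d01, which has no described product in the annotation used, differed by 1.71, 2.27 and 0.79 in the same order.

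For crema the nearest genes were less alike and none belonged to the lists. They were gpx8 (0.870), a peroxidase of the endoplasmic reticulum, eya1 (0.869), a developmental transcription cofactor, farp2 (0.865), the lens crystallin gene crybb1 (0.858), cyp2aa3 (0.856), wu:fu71h07 (0.855), grnas (0.842), the lipoprotein receptor gene scarb1 (0.838), zgc:77614 (0.836) and si:ch73-303b9.1 (0.834). Their differences of winners from isolated fish lay between 0.46 and 1.05, and those of winners from losers between 0.20 and 0.52. gpx8, the nearest, differed between winners and losers by 0.48, where crema differed by 0.46. These genes were picked for their likeness to crema on the same arrays, so similar differences follow from the choice.

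**Figure D4:**
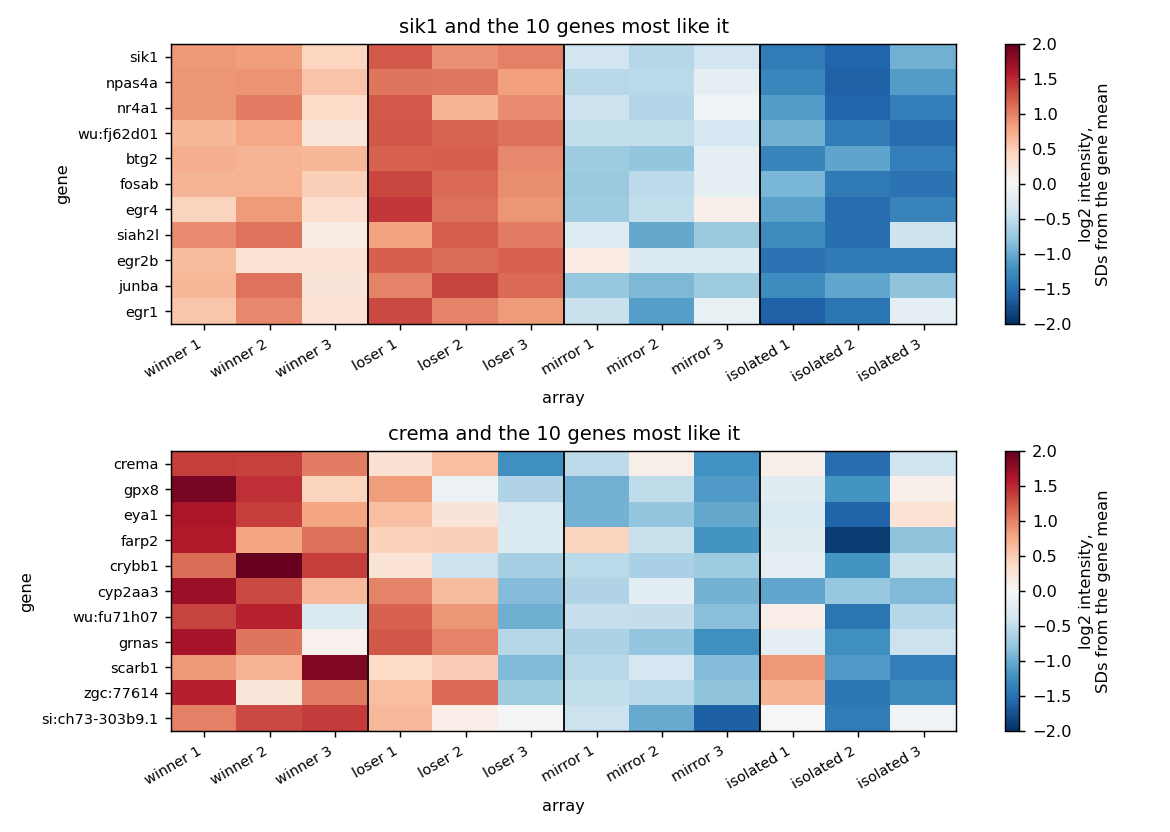
Level of sik1 (upper panel) and crema (lower panel) and of the 10 genes most like each, on the 12 arrays; colour gives the log2 intensity in SDs from each gene's mean, with the scale ending at 2 in either direction, and black lines part the groups. The sik1 panel changes colour in blocks by group, while in the crema panel the winner arrays are mostly high and loser array 3, mirror fighter array 3 and isolated array 2 mostly low.

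The labelled tissue carried its markers. The 8 neuronal genes measured lay at the 96.4th percentile of level or above and the 6 radial glial genes at the 85.5th or above, while the 5 pituitary hormone genes lay at the 27.2nd or below. limma called none of 36 cell type markers in any comparison, again near the background. Of 8 measured microglia and leukocyte markers, 8 were lower in winners than in isolated fish (median log2 difference -1.39) 7 were lower in losers (-0.59) and 6 in mirror fighters (-0.61). All 8 were also lower in winners than in mirror fighters (-0.66), and 6 were lower in winners than in losers (-0.44). The log2 of their summed intensity ranged over 9.97 to 11.5 in winners, 11.0 to 11.6 in losers, 11.2 to 11.6 in mirror fighters and 10.8 to 11.8 in isolated fish. This sum weighs most on apoeb, at a mean log2 of 10.86 ahead of coro1a at 7.55. With each marker centred on its own mean log2, their average ranged over -0.93 to -0.09 in winners and -0.73 to 0.46 in losers. It ranged over -0.20 to 0.35 in mirror fighters and 0.14 to 1.03 in isolated fish. No marker was at the floor of the values on any array. Of 8 neuronal markers, 7 were higher in winners than in isolated fish (median 0.22) and 6 in losers (0.09). The log2 of their summed intensity was 15.2 to 15.5 in winners, 15.2 to 15.3 in losers, 15.0 to 15.1 in mirror fighters and 14.9 to 15.3 in isolated fish. All 4 erythrocyte markers were lower in winners (median -0.27) and in losers (-0.34) than in isolated fish, with overlapping summed levels. The part of these shifts in the sik1 and crema values was not tested. In whole brain, fewer cells expressing a gene and less of its RNA per cell cannot be told apart.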

How the data were processed

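RNA of whole brain was labelled from 100 ng with spiked poly-A controls and hybridized to Affymetrix zebrafish arrays, per the labels' protocols. The deposited values are linear intensities, 1 for each probe set on each array, with a lowest value of 1; the authors' summary and normalization are not given in the sources used here. Partek 6.6 is named in the submitters' processing notes, without its role. For this report log2 was taken without an offset, 115 control probe sets were left out, and 15502 were fitted with 1 mean per group over all 12 arrays in limma 3.58.1 (R 4.3.3), with a Benjamini-Hochberg adjusted p under 0.05 as a call within each of 6 comparisons. Probe sets under a mean log2 of 5.02, the dimmest 25%, are called dim. Genes were named from the platform annotation, which gave 10795 probe sets 1 symbol, 135 several and 4572 none. Of those with 1 symbol, 10711 were matched by identifier to a gene table of assembly GRCz12tu and took its symbol. List genes were read by their brightest probe set. Named were both chosen genes, every called list gene, the 3 of each list with the smallest p, and the 10 genes most like each chosen gene among brighter probe sets. The members and lists were chosen with earlier results of these data known. Fits were tested on simulated data. Same-numbered winner and loser arrays deviated together from their group means (correlations of 0.112, 0.111 and 0.233), so they were treated as pairs in an alternative. Loser and isolated arrays of the same number also did so, less strongly (0.0277, 0.0980 and 0.0987). Single numbers in other pairs of groups reached 0.184 and 0.211, and the labels do not give the pairing. With 3 arrays per group their number limits the precision. Promoter and protein sequences were not analysed here.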

Additional observations from a re-analysis of the deposited data

How the results depend on the processing

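Over the 19 or 20 alternatives per comparison, the sik1 difference from isolated fish ranged over 1.51 to 1.85 in winners, 1.78 to 2.13 in losers and 0.62 to 0.88 in mirror fighters. Many of the alternatives leave a difference of group means unchanged by design. These are the dim filter, the moderation, the block, fits of only the arrays compared, and leaving out arrays of other groups. The ranges of sik1 and crema therefore come from the remaining alternatives. It ranged over 0.88 to 1.08 for winners and 1.15 to 1.30 for losers against mirror fighters, and -0.34 to -0.16 for winners against losers. With 32 added before log2, crema differed by 0.33 between winners and isolated fish and by 0.32 between winners and mirror fighters. Its winner differences stayed above 0 throughout. The call counts depended on the processing and the cause was not tested. Between winners and isolated fish, 38 probe sets were called, 65 with 32 added, 59 without the dimmest 25% and 3 when only the arrays compared were fitted, where 1 CREB target was called. Between losers and isolated fish the 88 calls became 317, 271, 162 with trend and robust moderation, and 15 with only those arrays, with 7 CREB targets. Between winners and mirror fighters the 1 call became 4 after quantile normalization, 3 after median centring, 31 with 32 added, 19 without the dimmest 25%, 30 with trend and robust moderation and 0 with only those arrays. The CREB targets called there were 1, 1, 6, 5, 6 and 0 in turn, and 1 when a gene's probe sets were averaged. Between losers and mirror fighters the 27 calls became 53 with 32 added, 71 without the dimmest 25%, 44 with trend and robust moderation and 0 with only those arrays, where 0 CREB targets were called. Winners and losers gave 1 call with only those arrays. None of the other 40 pathway genes was called under any alternative.

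With the replicate number as a block over all arrays, winners against mirror fighters gave 0 calls and losers against mirror fighters 14, with 5 CREB targets. In the block fitted to winner and loser arrays alone, where the numbers were taken as pairs, 0 probe sets were called. The differences there were -0.28 ± 0.14 (SE) for sik1 and 0.46 ± 0.16 for crema. Each number has 1 winner and 1 loser array, so this block leaves the differences unchanged by design. Neither block changed another count by over 1.5 times.

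Leaving out 1 array, the calls ranged over 15 to 39 for winners and 21 to 122 for losers against isolated fish, 0 to 1 for mirror fighters against isolated fish, 0 to 5 for winners and 0 to 27 for losers against mirror fighters, and 0 to 2 between winners and losers. CREB targets called ranged over 5 to 10, 7 to 11, 0 to 0, 0 to 1, 0 to 7 and 0 to 0 in the same order. The planned motif search in promoters was not run. With 3 arrays per group, and crema near the dimmest 25%, small differences in crema are beyond what these arrays can settle.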
